A study of Mus musculus with 16 samples.

Results

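The genes described here encode the membrane carriers of glucose, amino acids and monocarboxylates of the SLC1, SLC2, SLC3, SLC7, SLC16 and SLC38 families. They were chosen by symbol, with earlier results of these data known, and 61 of the 54347 genes in the count table belonged to these 6 families. RNA was taken from wt1-SAM cells, an immortalized mouse brown preadipocyte line with the CRISPRa SAM machinery stably built in, which uses a Cas9 that no longer cuts, and activators bound to a single guide RNA (sgRNA), to switch on the gene the guide matches. All groups shared this one line, its differentiation with rosiglitazone, insulin, IBMX, dexamethasone, indomethacine and T3, and a reverse transfection with 250 ng of plasmid on day 4 before harvest on day 7. The 4 groups were empty sgRNA vector without stimulation, empty vector with 1 µM isoproterenol for 24 h, *Gm15551* sgRNA plasmids without stimulation and *Gm15551* sgRNA plasmids with the same isoproterenol dose. *Gm15551* is a long noncoding RNA gene and isoproterenol is a β-adrenergic agonist. The replicate numbers 3, 4, 5 and 6 each occurred once per group, giving 16 libraries. No label says whether the replicates were separate cultures, so the p-values measure the spread between these libraries, which may be technical.

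Solute carriers set which nutrients a cell can take up or release. SLC2 proteins (GLUTs) carry hexoses down their gradient, and GLUT4 reaches the surface of fat and muscle cells under insulin. SLC1 and SLC38 proteins couple amino acid uptake to sodium, SLC7 light chains exchange amino acids and most of them need the heavy chain encoded by *Slc3a2* to reach the membrane, and the best known SLC16 proteins move lactate, pyruvate and ketone bodies together with a proton. Stimulated brown adipocytes are known for burning fatty acids and for taking up glucose and amino acids as further fuel and building blocks.

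Library totals lay between 9053521 and 16546187 estimated counts. One annotated ribosomal RNA gene held 11.7% to 51.8% of them, which left between 5900607 and 12959314 counts for all other genes. Its share was lower with the sgRNA plasmids in 8 of 8 pairs of libraries with the same number and treatment, and higher with isoproterenol in 6 of 8. *Gm15551*, the gene the sgRNAs were directed at, had 3 to 18 counts in the unstimulated and 0 to 5 in the stimulated empty vector libraries, against 19 to 56 and 13 to 26 in the sgRNA libraries. The labelled cell type was checked on marker lists, in CPM (counts scaled to a common library size). The 8 adipocyte markers were all present in every library, from *Cebpa* with 103 CPM or more to *Fabp4* with 8215 CPM or more. Of the 8 brown adipocyte markers *Elovl3* (158 to 443 CPM) and *Ppargc1a* (30.5 to 88.7 CPM) lay above the other 6 in every library. *Ucp1*, the defining one, lay between 0 and 0.979 CPM in the 8 unstimulated and between 4.37 and 15.5 CPM in the 8 stimulated libraries, *Prdm16*, *Cox7a1* and *Cox8b* stayed between 0.111 and 2.17 CPM, *Cidea* measured 0.657 to 18.8 CPM, and *Dio2* was at 0 in all but 1 library. Of the 4 muscle markers *Myod1* and *Myf5* were at 0 in every library, *Myog* was at 0 in all but 1, and *Acta1* measured 0.935 to 3.82 CPM. Values from mixed cultures do not separate fewer cells of a type from less RNA per cell.

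A total of 26 of the 61 carrier genes passed the filter on low counts, among 13150 genes in the whole table. The tested members were 3 of 7 SLC1, 4 of 12 SLC2, 1 of 2 SLC3, 5 of 15 SLC7, 6 of 14 SLC16 and 7 of 11 SLC38 genes. Of the 35 that did not pass, 4 were at 0 in every library (*Slc1a6*, *Slc2a5*, *Slc7a4* and *Slc7a9*), 11 had between 1 and 9 counts over all libraries and 20 had 10 or more. The highest count of an untested member in any library was 19. A count of 0 over all 16 libraries allows at most 0.0147 CPM, for counting error only. The untested members include carriers that mark other tissues, such as *Slc2a2*, the GLUT of liver and pancreatic islets, *Slc1a2*, the main glutamate carrier of astrocytes, and *Slc7a10*, the ASC-1 carrier described on white adipocytes, which had 1 count in all. Others were *Slc1a1* and *Slc1a7*, then *Slc2a3*, *Slc2a6*, *Slc2a7*, *Slc2a10*, *Slc2a12* and *Slc2a13*, then *Slc3a1*, then *Slc7a2*, *Slc7a7*, *Slc7a8*, *Slc7a12*, *Slc7a13*, *Slc7a14* and *Slc7a15*. Further ones were *Slc16a5*, *Slc16a7*, *Slc16a8*, *Slc16a9*, *Slc16a11*, *Slc16a12* and *Slc16a14*, and *Slc38a3*, *Slc38a5*, *Slc38a8* and *Slc38a11*.

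Levels of different genes were compared as CPM per kilobase of exon, averaged over the 16 libraries. The highest were the lactate and pyruvate carrier *Slc16a1* (MCT1) with 56.8 ± 10.8 (SD, n = 16), the glutamine carrier *Slc1a5* (ASCT2) with 42.4 ± 14.2 and the heavy chain *Slc3a2* (CD98hc) with 35.6 ± 5.02. The order of *Slc16a1* and *Slc1a5* is not fixed. In unstimulated empty vector and sgRNA cells *Slc1a5* stood at 52.1 ± 13.7 and 49.2 ± 10.6 (SD, n = 4) beside 49.1 ± 5.27 and 48.4 ± 5.39 for *Slc16a1*, and in stimulated ones at 35.6 ± 15.98 and 32.5 ± 8.44 beside 65.6 ± 9.90 and 64.2 ± 9.01. With the length of the longest transcript in place of the exon union, *Slc1a5* was first over all libraries (63.0 against 56.8). Next came the sodium-coupled neutral amino acid carrier *Slc38a2* (SNAT2) with 26.7 ± 5.08, the basal glucose carrier *Slc2a1* (GLUT1) with 25.9 ± 8.04, the insulin-dependent *Slc2a4* (GLUT4) with 19.1 ± 4.65 and the large neutral amino acid light chain *Slc7a5* (LAT1) with 17.3 ± 4.08. Of neighbours in this order, *Slc3a2* and *Slc38a2* lay apart by more than the SD of either gene, while, *Slc16a1* and *Slc1a5* aside, the other neighbours among these 7 did not differ beyond their spread. A step separated them from *Slc7a6* (y+LAT2) at 7.83, and the tested member with the lowest level was the cationic amino acid carrier *Slc7a3* at 0.187. Together the 61 genes took between 0.152% and 0.218% of the counts other than ribosomal RNA.

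**Figure D1:**
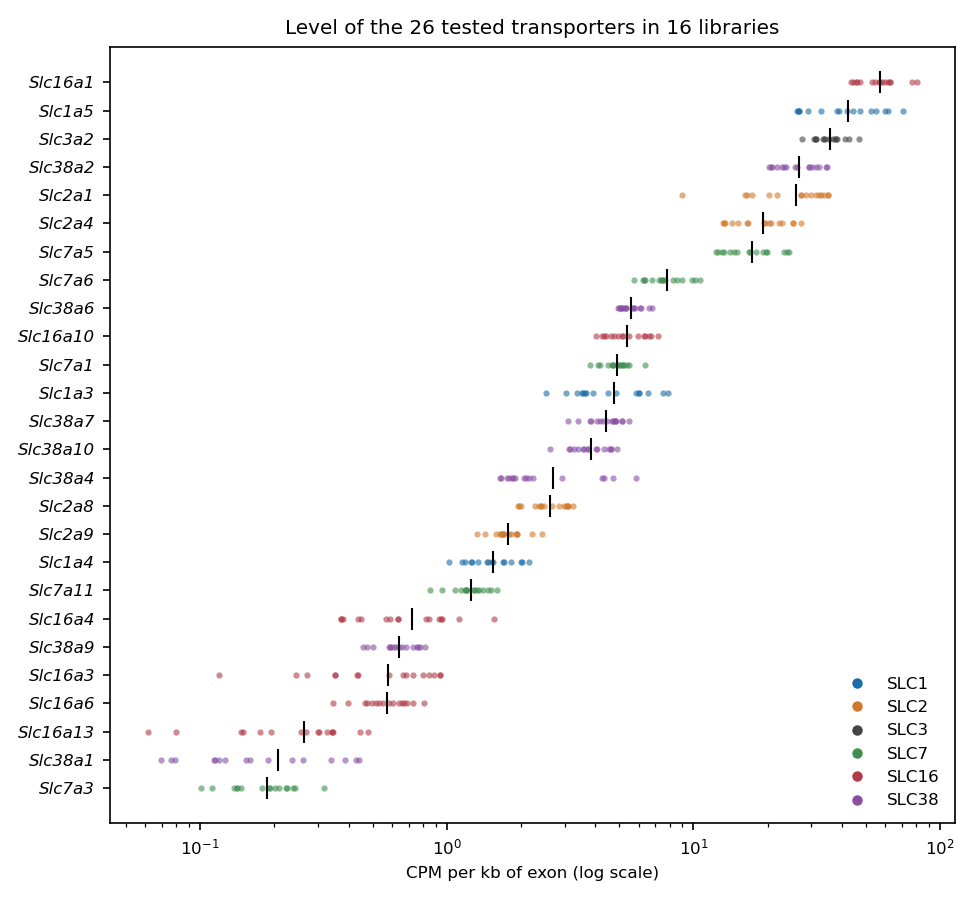
Level of the 26 tested carrier genes as CPM per kb of exon on a log axis, 1 point per library (16 libraries), with the mean as a black bar and colours for the 6 families. Levels run from 0.187 for *Slc7a3* to 56.8 for *Slc16a1*, and 7 genes stand above the step to *Slc7a6* at 7.83.

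Within each family 1 or 2 genes held most of the signal. *Slc1a5* made up 86.4% ± 2.52 (SD, n = 16) of the summed SLC1 level per kb and *Slc16a1* 87.5% ± 2.58 of the SLC16 level, while *Slc38a2* made up 60.2% ± 4.41 of the SLC38 level. *Slc2a1* and *Slc2a4* divided the SLC2 level, with 44.3% and 44.8% in unstimulated and 57.2% and 33.8% in stimulated empty vector cells, and 47.2% and 43.3% against 57.4% and 34.6% in sgRNA cells. The SD over the 4 libraries of a group was between 8.85 and 15.7 percentage points for both genes. The ratio of the LAT-type light chains (*Slc7a5*, *Slc7a6*, *Slc7a7*, *Slc7a8*, *Slc7a10* and *Slc7a11*) to their heavy chain *Slc3a2* was 0.752 per kb, with a range of 0.639 to 0.927 over the libraries. These shares rest on exon union lengths and were not tested.

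The first comparison asks which carriers respond to β-adrenergic stimulation, with the isoproterenol effect averaged over both plasmids. *Slc1a3* fell to 0.553 of its control level, and the levels of *Slc7a5* and *Slc16a1* moved less, the first downwards and the second upwards. A gene was called when its p by the quasi-likelihood test of edgeR, adjusted by Benjamini-Hochberg over the 13150 genes, was under 0.05 and its log2 fold change exceeded 0.5 in size. By this rule 1 of 26 members was lower (*Slc1a3*) beside 1.32% of all tested genes, and 0 members were higher beside 1.33%. With an adjusted p under 0.05 and no bound on the fold, 2 members were lower (*Slc1a3* and *Slc7a5*) beside 2.43% of genes, and 1 was higher (*Slc16a1*) beside 2.06%. DESeq2 called 2 of 26 members, *Slc1a3* and *Slc1a5*, beside 3.54% of genes. An unadjusted p under 0.05 in edgeR was found for 7 of 26 members beside 17.7% of genes. The replicate numbers pair the libraries, and a fit blocked on that number called 2 lower (*Slc1a3* and *Slc1a5*) beside 2.61% of genes and 1 higher (*Slc38a1*) beside 3.09%. Without the fold bound the blocked fit had 5 members lower beside 10.4% of genes and 4 higher beside 10.9%. The median log2 fold change of the 26 members was −0.05 against 0.00 over all tested genes, with 12 above and 14 below 0. The median size of the change, direction aside, was 0.22 for the members and 0.14 for all genes.

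*Slc1a3* encodes EAAT1 (GLAST), a sodium-coupled carrier of glutamate and aspartate, and lies on chromosome 15 (GRCm38, bases 8634124 to 8710764, minus strand). Its promoter window is printed because it was the only called member that the RefSeq table (GRCm38.p6) held a window for. The window covers chr15:8710758-8711057 on the minus strand, 250 bases before to 50 after the RefSeq start, 5′ to 3′, and the capitals mark the TGACG letters, the first part of a cAMP response element, which begin at position −13 from the start.
Slc1a3: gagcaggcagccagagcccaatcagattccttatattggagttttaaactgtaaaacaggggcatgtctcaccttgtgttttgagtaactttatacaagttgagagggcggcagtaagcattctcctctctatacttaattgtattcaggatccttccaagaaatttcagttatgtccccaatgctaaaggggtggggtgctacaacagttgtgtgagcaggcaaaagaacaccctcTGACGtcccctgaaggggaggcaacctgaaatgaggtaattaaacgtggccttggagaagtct
The letters TGACG, searched on both strands, stood in 11 of the 55 promoter windows of 45 members (20.0%) and in 20.8% of the 32851 windows of the table. Of the 23 windows of the 19 tested members with a window, 10 held them. No share was taken over the windows of all tested genes, and the difference was not tested. The complete palindrome TGACGTCA, which contains TGACG, stood in 1 member window (*Slc38a6*, a gene whose log2 fold change was 0.01) and in 1.79% of all windows. These are matches of letters and say nothing of whether a factor binds there.

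In empty vector cells of replicates 3, 4, 5 and 6, *Slc1a3* measured 64.4, 51.5, 51.4 and 41.3 CPM without and 28.9, 31.0, 31.4 and 26.1 CPM with isoproterenol. In sgRNA cells the values were 67.2, 55.7, 49.9 and 38.4 CPM without and 33.4, 30.0, 30.4 and 21.5 CPM with isoproterenol. All 8 stimulated libraries lay below all 8 unstimulated ones, so the groups did not overlap. The log2 fold change was −0.85 (SE 0.12, 95% interval −1.11 to −0.59), with an adjusted p of 0.000653 by edgeR's quasi-likelihood test, and −0.84 (SE 0.06) with an adjusted p of 1.64e-07 with the replicate block. The fall was −0.83 in empty vector cells (adjusted p = 0.0303, edgeR) and −0.87 in sgRNA cells (adjusted p = 0.0245, edgeR), each over 4 pairs, beside 0.829% and 0.7% of all tested genes called in these arms. Each of these last calls was lost in 9 of 20 fits that left out a library or a replicate number, with values from −0.93 to −0.71 and from −1.01 to −0.74, while the averaged call held in all 20. In the blocked fit the adjusted p was 2.56e-05 in empty vector and 1.05e-05 in sgRNA cells (edgeR).

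*Slc1a5*, on chromosome 7 (bases 16781340 to 16798274, plus strand), encodes ASCT2, which exchanges glutamine, alanine, serine and cysteine. In empty vector cells it measured 219, 197, 295 and 160 CPM without and 112, 122, 248 and 112 CPM with isoproterenol in replicates 3 to 6. In sgRNA cells it measured 229, 175, 255 and 162 CPM without and 138, 109, 185 and 111 CPM with isoproterenol. The stimulated library was the lower one in 8 of 8 pairs, but replicate 5 was high throughout and the groups overlapped. The log2 fold change was −0.57 (SE 0.19, 95% interval −0.97 to −0.17) with an adjusted p of 0.104 by edgeR's quasi-likelihood test, so edgeR did not call the gene without the block, while DESeq2 did (−0.57, adjusted p = 0.0422). The blocked estimate was −0.60 (SE 0.08, adjusted p = 4.83e-05, edgeR). Without the stimulated empty vector library of replicate 5 the fit without a block gave −0.76 (adjusted p = 0.0080, edgeR), and without all replicate 5 libraries −0.70 (adjusted p = 0.00642, edgeR). In that library the ribosomal RNA gene took 51.8% of counts. Its part in the value was not tested, and the blocked fit with the share of that gene as covariate gave −0.62 (adjusted p = 0.000103, edgeR). *Slc1a4* (ASCT1), the related neutral amino acid carrier and the third tested SLC1 gene, had a log2 change of −0.15 (SE 0.16, adjusted p = 0.703, edgeR).

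*Slc7a5* encodes LAT1, the light chain that exchanges leucine and other large neutral amino acids, on chromosome 8 (bases 121881150 to 121907694, minus strand). In empty vector cells it measured 73.6, 88.9, 72.8 and 62.3 CPM without and 54.2, 49.3, 71.3 and 48.5 CPM with isoproterenol. In sgRNA cells it measured 90.1, 86.4, 66.5 and 55.8 CPM without and 62.7, 45.8, 46.5 and 52.0 CPM with isoproterenol. The stimulated library was lower in 8 of 8 pairs, by little in replicate 5 of the empty vector and replicate 6 of the sgRNA cells, and the groups overlapped. On the log2 scale the fold change was −0.47 (SE 0.12, 95% interval −0.73 to −0.22) with an adjusted p of 0.0329 by edgeR's quasi-likelihood test, and 0.00364 with the block. The size of the change lay just inside the fold bound, and leaving out single libraries or replicate numbers took it to between −0.55 and −0.33 and past both thresholds in 7 of 20 fits, while the other 13 had an adjusted p of 0.05 or more, up to 0.325 without all of replicate 4 (edgeR). The 7 left out the stimulated empty vector library of replicate 5 (−0.55), the unstimulated one of replicate 6 (−0.51), the unstimulated sgRNA libraries of replicates 5 (−0.51) and 6 (−0.54), the stimulated sgRNA library of replicate 3 (−0.53), or all of replicate 5 (−0.55) or 6 (−0.55). With the block 8 of 20 fits took it past both thresholds, the farthest without the stimulated empty vector library of replicate 5 (−0.55, adjusted p = 0.000431, edgeR), and 1 lost the adjusted p, that without replicate 4 (−0.32, adjusted p = 0.0576, edgeR). It was also called without a filter on low counts (−0.51, adjusted p = 0.00949, edgeR) and when the ribosomal RNA share joined the block (−0.56, adjusted p = 0.000512, edgeR).

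*Slc3a2*, the heavy chain that LAT1 pairs with, lies on chromosome 19 (bases 8706882 to 8723369, minus strand). It measured 129 ± 15.8 CPM (SD, n = 4) in unstimulated and 123 ± 29.5 in stimulated empty vector cells, and 134 ± 12.5 and 118 ± 10.1 where sgRNA plasmids were given. The fold change on the log2 scale was −0.12 (SE 0.10, 95% interval −0.34 to 0.09, adjusted p = 0.586, edgeR), so it passed neither threshold. Leaving out libraries took it to between −0.21 and −0.08, and the lower end was that without the stimulated empty vector library of replicate 5. With the block the adjusted p fell under 0.05 without that library (−0.20, adjusted p = 0.00813, edgeR) or without all of replicate 5 (−0.18, adjusted p = 0.0192, edgeR). As a description, *Slc7a5* made up 69.1% and 70.2% of the light chain level per kb in unstimulated empty vector and sgRNA cells, and 58.5% and 59.9% in stimulated ones.

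The other SLC7 genes were smaller in their differences. *Slc7a6*, the y+LAT2 light chain that exchanges cationic for neutral amino acids, had a log2 change of 0.22 (SE 0.12, adjusted p = 0.366, edgeR), was higher in 7 of 8 pairs and had an adjusted p of 0.0451 with the block, which 16 of 20 fits with libraries left out lost (0.12 to 0.28). *Slc7a11*, the cystine-glutamate exchanger xCT, had 0.14 (SE 0.11, adjusted p = 0.545, edgeR), between 0.03 without replicate 3 and 0.27 without replicate 6, and passed the adjusted p only in the blocked fit without replicate 6 (0.27, adjusted p = 0.0424, edgeR). *Slc7a1*, the cationic amino acid carrier CAT1, had −0.01 (SE 0.09, 95% interval −0.21 to 0.18). *Slc7a3*, with 3 to 16 counts per library, had −0.09 (SE 0.26). Of these SLC7 genes only *Slc7a5* had an adjusted p under 0.05 without the block, and *Slc7a5* and *Slc7a6* did with it.

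*Slc16a1*, on chromosome 3 (bases 104638668 to 104658462, plus strand), encodes MCT1, which carries lactate, pyruvate and ketone bodies. Its window, chr3:104638414-104638713 on the plus strand in GRCm38.p6, is printed as that of the member that rose by adjusted p without the block, chosen after its values were seen. The capitals mark the E-box letters CACGTG, which begin at position −200 from the start.
Slc16a1: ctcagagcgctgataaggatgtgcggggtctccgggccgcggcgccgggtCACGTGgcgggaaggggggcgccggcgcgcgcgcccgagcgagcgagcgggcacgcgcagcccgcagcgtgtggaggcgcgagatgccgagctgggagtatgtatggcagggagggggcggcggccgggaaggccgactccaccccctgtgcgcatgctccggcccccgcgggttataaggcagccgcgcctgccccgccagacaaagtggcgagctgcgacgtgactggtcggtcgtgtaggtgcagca
CACGTG stood in 7 of 55 member windows (12.7%), in 2 of the 23 windows of tested members and in 7.15% of all windows. The C/EBP-ATF letters TGATGNAA stood in 4 of 55 (7.27%), in 2 of those 23 and in 3.97%, both strands searched. Neither printed window holds TGACGTCA or TGATGNAA.

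In empty vector cells *Slc16a1* measured 234, 192, 240 and 203 CPM without and 272, 278, 355 and 257 CPM with isoproterenol. In sgRNA cells it measured 202, 197, 249 and 209 CPM without and 265, 278, 342 and 252 CPM with isoproterenol. Every stimulated library lay above every unstimulated one, by a small margin between the lowest stimulated and the highest unstimulated value. The log2 fold change was 0.41 (SE 0.09, 95% interval 0.22 to 0.61) with an adjusted p of 0.0158 by edgeR's quasi-likelihood test, and 0.41 (SE 0.05) with an adjusted p of 2.13e-05 with the block. It stayed under the fold bound in both fits, and without all of replicate 3 or all of replicate 4 the adjusted p without the block was 0.118 or 0.155 (edgeR), while 0 of 20 blocked fits lost it. Of the other SLC16 genes, *Slc16a3* (MCT4, the lactate exporter of glycolytic cells) measured between 0.64 and 5.00 CPM and had a log2 change of 0.45 (SE 0.34, adjusted p = 0.555, edgeR). That value ran from 0.28 without replicate 6 to 0.67 without the unstimulated empty vector library of replicate 3. With the block *Slc16a3* was at 0.46 (adjusted p = 0.149, edgeR), and 1 of 20 blocked fits called it, that without the stimulated empty vector library of replicate 5 (0.56, adjusted p = 0.0408, edgeR). *Slc16a10*, the aromatic amino acid carrier TAT1, had −0.25 (SE 0.12, adjusted p = 0.290, edgeR; 0.0466 without the stimulated empty vector library of replicate 5), with an adjusted p of 0.0263 with the block, lost in 11 of 20 fits with libraries left out (−0.32 to −0.16), and lower values in 7 of 8 pairs. *Slc16a4*, *Slc16a6* and *Slc16a13* had −0.25 (SE 0.32), −0.09 (SE 0.16) and 0.16 (SE 0.38) and passed neither fit.

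The glucose carriers moved in opposite directions where they passed a test, and only the blocked fit passed them. *Slc2a4* (GLUT4), on chromosome 11 (bases 69942539 to 69948188, minus strand), measured 76.9, 67.6, 94.9 and 57.4 CPM in unstimulated and 46.5, 46.4, 88.0 and 49.96 CPM in stimulated empty vector cells. In sgRNA cells it measured 71.4, 67.3, 88.4 and 70.1 CPM without and 52.5, 45.7, 79.4 and 57.8 CPM with isoproterenol. It was lower in 8 of 8 pairs, while replicate 5 was high in all groups and made the ranges overlap within each plasmid. Across plasmids, stimulated sgRNA cells of replicate 6 (57.8 CPM) also lay above unstimulated empty vector cells of replicate 6 (57.4 CPM). Its log2 fold change was −0.35 (SE 0.15, adjusted p = 0.240, edgeR), and −0.38 (SE 0.07) with an adjusted p of 0.00163 with the block, which all 20 blocked fits with libraries left out kept under 0.05. Without the block it passed only without the stimulated empty vector library of replicate 5 (−0.49, adjusted p = 0.0306, edgeR) or all of replicate 5 (−0.46, adjusted p = 0.0130, edgeR).

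*Slc2a1* (GLUT1), on chromosome 4 (bases 119108711 to 119137983, plus strand), measured 96.0, 115, 31.4 and 71.0 CPM in unstimulated and 124, 123, 56.9 and 101 CPM in stimulated empty vector cells. In sgRNA cells it measured 105, 118, 57.9 and 60.5 CPM without and 114, 110, 76.7 and 95.5 CPM with isoproterenol. It was higher in 7 of 8 pairs, with replicate 5 low in every group. Its log2 fold change was 0.28 (SE 0.24, adjusted p = 0.602, edgeR; 0.15 to 0.42 with libraries left out), and 0.34 (SE 0.11) with an adjusted p of 0.0402 with the block, lost in 13 of 20 fits with libraries left out (0.25 to 0.46). Its exons share 105 bases with *Gm12868* on the opposite strand, whose reads could not be told apart if strand was not used. *Slc2a8* and *Slc2a9*, an intracellular hexose carrier and a urate carrier, had −0.28 (SE 0.11) and −0.23 (SE 0.10), with adjusted p-values of 0.184 and 0.230 by edgeR's quasi-likelihood test and 0.0707 and 0.0631 with the block.

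**Figure D2:**
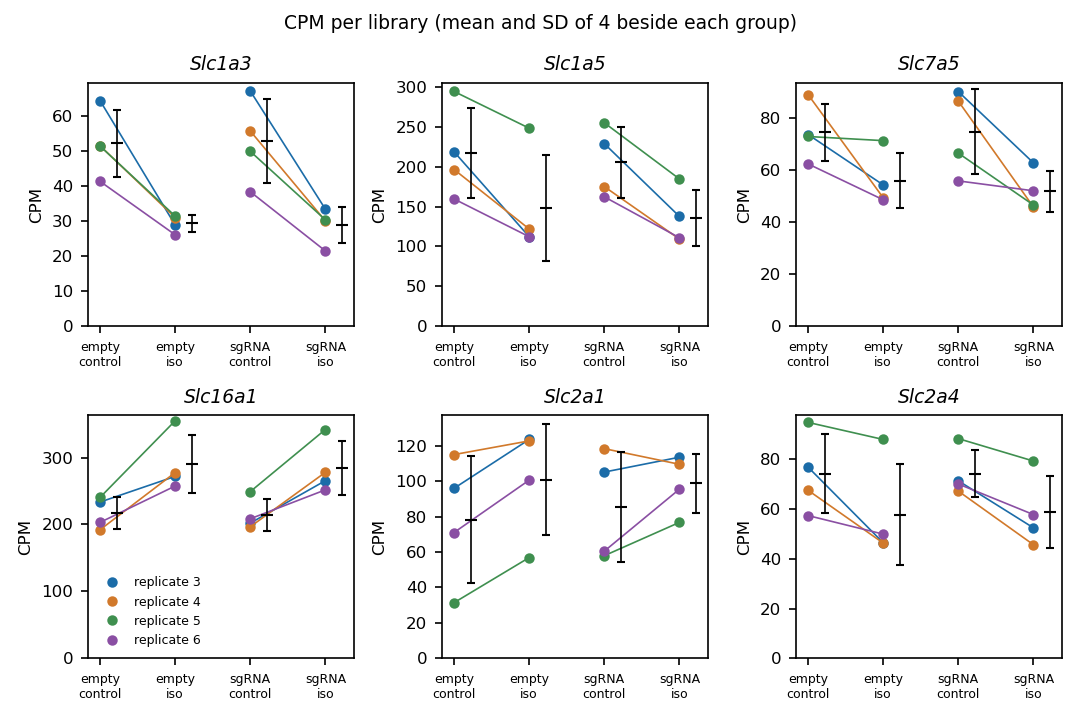
CPM per library of *Slc1a3*, *Slc1a5*, *Slc7a5*, *Slc16a1*, *Slc2a1* and *Slc2a4* in the 4 groups, with points coloured by replicate number, lines joining libraries of the same number and plasmid, and the mean and SD of 4 beside each group. *Slc1a3* lies between 21.5 and 33.4 CPM in all stimulated and between 38.4 and 67.2 CPM in all unstimulated libraries, while replicate 5 of *Slc1a5* stays at 248 CPM in stimulated empty vector cells.

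The SLC38 genes encode the sodium-coupled neutral amino acid carriers (SNATs), and 1 of the 7 tested was called, with the block only. *Slc38a1* (SNAT1), on chromosome 15 (bases 96571418 to 96642913, minus strand), measured 2.17, 1.31, 3.25 and 6.65 CPM without and 4.51, 2.05, 4.07 and 7.40 CPM with isoproterenol in empty vector cells. In sgRNA cells it measured 1.96, 1.37, 1.20 and 5.85 CPM without and 2.75, 1.98, 2.64 and 7.63 CPM with isoproterenol. The stimulated library was higher in 8 of 8 pairs, and replicate 6 lay above all others in each group. The log2 fold change was 0.49 (SE 0.42, adjusted p = 0.615, edgeR), with values from 0.19 without the stimulated to 0.88 without the unstimulated sgRNA library of replicate 6. With the block the estimate was 0.55 (SE 0.16, adjusted p = 0.0229, edgeR). Over the 20 blocked fits with libraries left out the values ran from 0.45 to 0.68 and the adjusted p-values from 0.0132 to 0.122 (edgeR). The call was lost in 7 of them, with values from 0.45 to 0.54 and adjusted p-values from 0.0403 to 0.122 (edgeR). The 7 were those without the unstimulated (0.50) or stimulated (0.48) empty vector library of replicate 3, the unstimulated empty vector library of replicate 4 (0.51), the unstimulated sgRNA library of replicate 5 (0.45), the stimulated sgRNA library of replicate 6 (0.54), or all of replicate 3 (0.47) or 4 (0.54). It was also lost when the share of the ribosomal RNA gene joined the block as covariate (0.40, adjusted p = 0.0875, edgeR).

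The remaining SLC38 genes passed neither fit over all libraries. *Slc38a2* (SNAT2), which cells raise under amino acid shortage, had a log2 change of 0.15 (SE 0.13, adjusted p = 0.628, edgeR), and 0.14 (SE 0.05) with an adjusted p of 0.0635 with the block. The blocked adjusted p was under 0.05 in 3 of 20 fits, all without libraries of replicate 4 (0.16 to 0.20). *Slc38a9*, a lysosomal arginine sensor upstream of mTORC1, had 0.07 (SE 0.13, 95% interval −0.21 to 0.35). The values for *Slc38a4*, *Slc38a6*, *Slc38a7* and *Slc38a10* were 0.08 (SE 0.31), 0.01 (SE 0.08), 0.08 (SE 0.11) and −0.22 (SE 0.11).

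**Figure D3:**
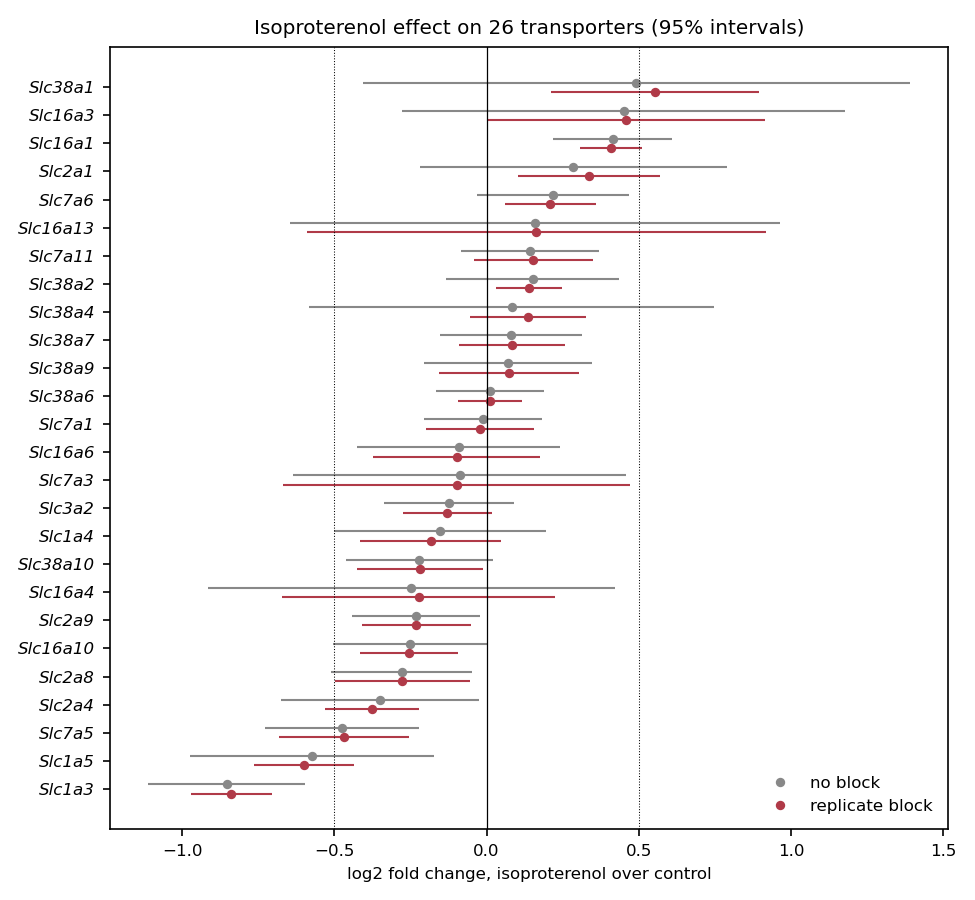
Log2 fold change of isoproterenol over control for the 26 tested carrier genes with 95% intervals, without (grey) and with (red) the replicate block, and dotted lines at the fold bound of 0.5 in either direction. *Slc1a3* at −0.85 lies past the bound with its whole interval, and the intervals of *Slc1a5*, *Slc2a1*, *Slc2a4* and *Slc38a1* narrow with the block.

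Markers of the cell state moved in the same comparison. Of the 8 adipocyte markers 2 fell, *Adipoq* by 1.06 and *Lipe* by 0.69 on the log2 scale, beside 1.32% of all tested genes called lower. The block added *Plin1* and *Cebpa*, which made 4, beside 2.61% of genes. The summed level of the 8 ranged from 17241 to 28026 CPM in unstimulated and 13086 to 23021 CPM in stimulated empty vector cells. In sgRNA cells it ran from 20730 to 26539 and from 14041 to 24715 CPM. Of the 8 brown adipocyte markers 7 were tested and 2 were called, both higher, beside 1.33% of genes. *Ucp1*, which uncouples respiration, rose by 4.03 and *Ppargc1a* by 0.71. The block added *Cidea*, which made 3, beside 3.09% of genes called higher. Of the 5 macrophage markers 1 was tested, and this gene, *Cd68*, a lysosomal protein, rose by 0.91, beside 1.33% of genes called higher. It measured 6.29 to 13.8 CPM in unstimulated and 13.1 to 22.3 CPM in stimulated libraries. The untested *Adgre1*, *Csf1r*, *Lyz2* and *Ptprc* stayed at 0.644 CPM or less in every library, so the summed list level was nearly all *Cd68*. That sum was 8.18 to 14.4 CPM in unstimulated and 14.4 to 22.6 CPM in stimulated empty vector cells. In sgRNA cells it was 6.44 to 13.8 and 13.6 to 22.1 CPM. Of the 8 preadipocyte and fibroblast markers 5 were tested and 0 called without the block. With it 1, *Ly6a*, was called higher, beside 3.09% of genes. The endothelial and muscle lists had 1 tested gene each and 0 calls in either fit. The part of these markers in the carrier values was not tested.

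Other genes that act with the carriers were read from 3 lists. Among partners and trafficking proteins 19 of 20 were tested and 1 was called, *Stom* (stomatin, a membrane protein that binds GLUT1), at 0.65 on the log2 scale (SE 0.14, adjusted p = 0.0148, edgeR), beside the 1.33% of all genes called higher. By adjusted p alone with the block 3 were higher beside 10.9% of genes and 2 were lower beside 10.4%, and of these 5 *Stom* alone passed without the block. The other higher ones were *Rab10*, a small GTPase of GLUT4 vesicles (0.15, adjusted p = 0.0117, edgeR), and *Arl6ip5* (0.13, adjusted p = 0.0346, edgeR). The lower ones were *Tbc1d4*, a Rab GTPase activator that holds GLUT4 inside the cell (−0.47, adjusted p = 0.000249, and 0.237 without the block, edgeR), and *Sort1*, a sorting receptor of GLUT4 vesicles (−0.50, adjusted p = 0.00333, and 0.113 without the block, edgeR). *Bsg* (basigin), the chaperone that MCT1 and MCT4 need at the membrane, had 0.15 (SE 0.18), and the median of the list was 0.05. Among genes of the amino acid and ATF4 response 20 of 22 were tested and 0 were called in either fit, with a median of −0.09. By adjusted p alone 1 was lower without the block, beside 2.43% of genes. With the block 2 were higher beside 10.9% of genes and 4 were lower beside 10.4%.

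Among the first enzymes on the carried substrates 21 of 24 were tested and 4 were called, all higher, beside 1.33% of all tested genes. The list median was 0.11. *Gclc*, the catalytic subunit of the first step of glutathione synthesis, rose by 0.86 on the log2 scale (SE 0.12), *Ldhb*, a lactate dehydrogenase subunit, by 0.77 (SE 0.14), and *Got1*, the cytosolic aspartate transaminase, by 0.51 (SE 0.08). The block added *Hk1* (hexokinase, 0.58) and *Bcat1* (branched-chain transaminase, 0.88) as higher and *Glul* (glutamine synthetase, −0.51) as lower. In that fit 3.09% of all tested genes were called higher and 2.61% lower. By adjusted p alone 5 were higher beside 2.06% of genes and 1 was lower beside 2.43% without the block. With it 8 were higher beside 10.9% and 4 were lower beside 10.4%. The medians stand beside 0.00 for all tested genes.

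The second comparison asks whether the plasmids directed at *Gm15551* changed the carriers, averaged over both treatments. No carrier was called. edgeR called 0 of 26 members without the block, beside 0% of all tested genes, and 0 with it, beside 0.266%. DESeq2 also called 0, beside 0.076% of genes. At an unadjusted p under 0.05 there were 0 members without the block, beside 3.32% of genes, and 1 with it, beside 11.5%. This was *Slc7a6*, which had a log2 change of −0.18 (SE 0.07, adjusted p = 0.356, edgeR) and lower values in 7 of 8 pairs. The log2 fold changes ran from −0.30 (SE 0.42) for *Slc38a1* to 0.32 (SE 0.26) for *Slc7a3*, with 20 members below and 6 above 0. Their median was −0.04 against −0.01 for all genes.

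In the partner, enzyme, ATF4 and marker lists edgeR called 0 genes for the sgRNA plasmids without the block. The blocked fit called 2, beside the same 0.266% of genes. *Cidea*, a lipid droplet protein of the brown adipocyte list, was higher by 1.05 (SE 0.21, adjusted p = 0.0348, edgeR), and *Ly6a*, of the preadipocyte and fibroblast list, was at −0.74 (SE 0.11, adjusted p = 0.00491, edgeR). By blocked adjusted p alone, beside 0.586% of genes, 2 more passed. These were *Txnip*, a regulator that removes GLUT1 from the membrane, at 0.42 (SE 0.07, adjusted p = 0.00639, edgeR), and *Atf3*, a stress-induced transcription factor, at 0.38 (SE 0.07, adjusted p = 0.0202, edgeR). Without the block all 4 had an adjusted p near 1 (edgeR). Their part in the carrier values was not tested.

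The intervals show what size of effect these libraries could bound. For *Slc16a1* the 95% interval ran from −0.22 to 0.17, for *Slc3a2* from −0.22 to 0.21 and for *Slc1a3* from −0.26 to 0.25, all inside the fold bound. For *Slc1a5* it ran from −0.51 to 0.29, for *Slc2a1* from −0.46 to 0.55 and for *Slc38a1* from −1.20 to 0.60. In that fit the carriers with the lowest counts or the largest spread between replicates were the least bounded. The share of the ribosomal RNA gene was lower in the sgRNA libraries of every pair. With it as a covariate beside the block, the median over members was 0.03 and 0 members were called. *Slc3a2* and *Slc7a5* were then at 0.18 and 0.20, and *Slc38a1* at 0.02. Share and plasmid go together in these libraries, so their parts in these values cannot be fully told apart. The −0.30 given above for *Slc38a1* came from the fit with neither the block nor the share, so both differ between its values.

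**Figure D4:**
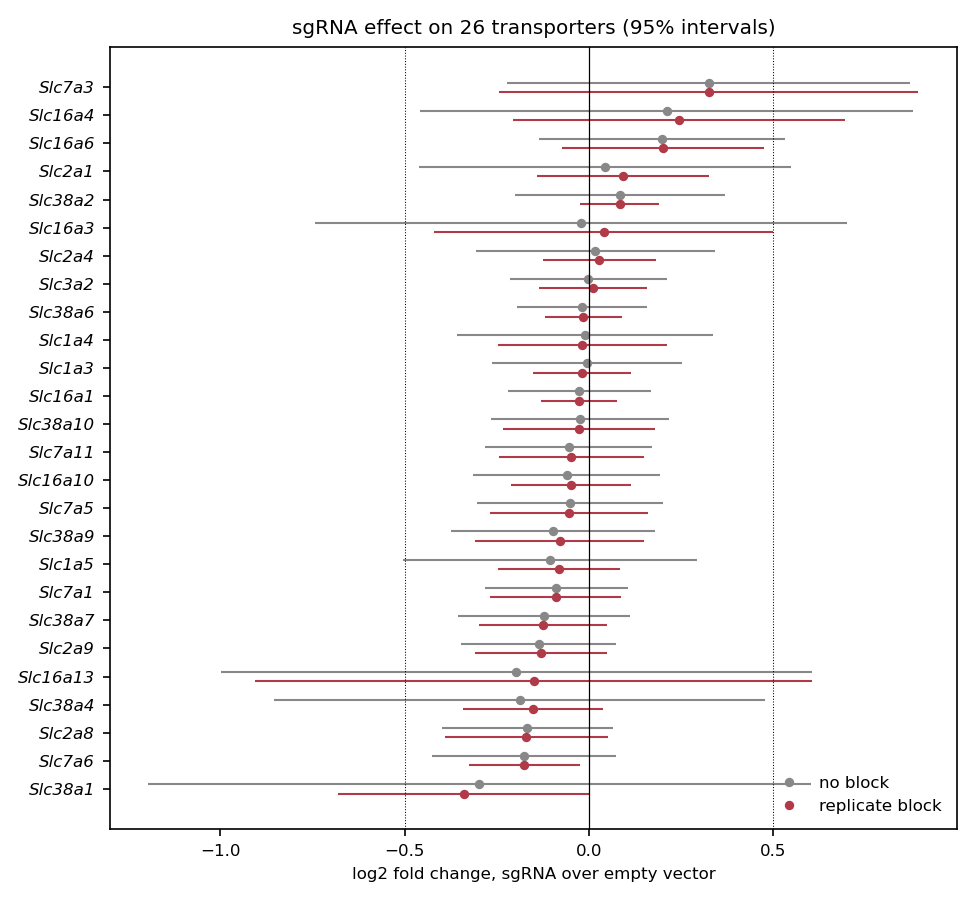
Log2 fold change of *Gm15551* sgRNA plasmids over empty vector for the 26 tested carrier genes with 95% intervals, without (grey) and with (red) the replicate block, and dotted lines at 0.5 in either direction. All point estimates without the block lie between −0.30 and 0.32.

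The third comparison asks whether the response to isoproterenol differed between the plasmids, by the interaction term. It called 0 of 26 members by edgeR without the block, beside 0% of all genes, and 0 with it, beside 0%, and DESeq2 called 0, also beside 0% of genes. The interaction estimates ran from −0.63 for *Slc16a6* to 0.52 for *Slc16a3*. At an unadjusted p under 0.05 there were 0 members without the block, beside 0.395% of genes, and 1 with it, beside 1.51%. This was *Slc16a6* (−0.66, SE 0.26), an MCT-family carrier named here after its values were seen. Its exons share bases with *Amz2* and *Arsg* on the opposite strand, whose reads could not be told apart if strand was not used. They also share bases with *Gm25540* on the same strand. The part of these overlaps in the *Slc16a6* value was not tested. For the members that changed with isoproterenol the interaction was −0.04 (SE 0.24) for *Slc1a3*, −0.01 (SE 0.18) for *Slc16a1* and −0.11 (SE 0.24) for *Slc7a5*. Within single arms the blocked fit called 2 of 26 members in empty vector cells, *Slc1a3* and *Slc1a5*, beside 4.47% of all tested genes. Among sgRNA cells 3 members were called, *Slc1a3*, *Slc1a5* and *Slc7a5*, beside 3.9%. *Slc7a5* passed in 1 arm only (−0.42 with adjusted p = 0.0821 and −0.52 with adjusted p = 0.0332, edgeR), and its difference between arms is the interaction just given.

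Replicate number moved several carriers more than either treatment. The share of variance of log2 CPM explained by replicate number was 0.918 for *Slc38a4* (SNAT4), 0.831 for *Slc38a2*, 0.798 for *Slc38a6*, 0.753 for *Slc38a1* and 0.707 for *Slc2a1*. The median over the 26 members was 0.468, as it was over all 13150 tested genes. *Slc38a4* averaged 9.69, 8.30, 7.45 and 20.4 CPM in replicates 3, 4, 5 and 6, and *Slc38a1* 2.85, 1.68, 2.79 and 6.88 CPM. Replicate 6 was the high one for both. In contrast *Slc2a1* was lowest in replicate 5 (110, 116, 55.7 and 81.9 CPM), and *Slc1a5* (174, 151, 246 and 136 CPM) and *Slc2a4* (61.8, 56.7, 87.7 and 58.8 CPM) were highest there. The carriers that isoproterenol accounted for most were *Slc1a3*, with a share of 0.773, *Slc16a1* with 0.635 and *Slc7a5* with 0.521. These shares are descriptions of 16 libraries.

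**Figure D5:**
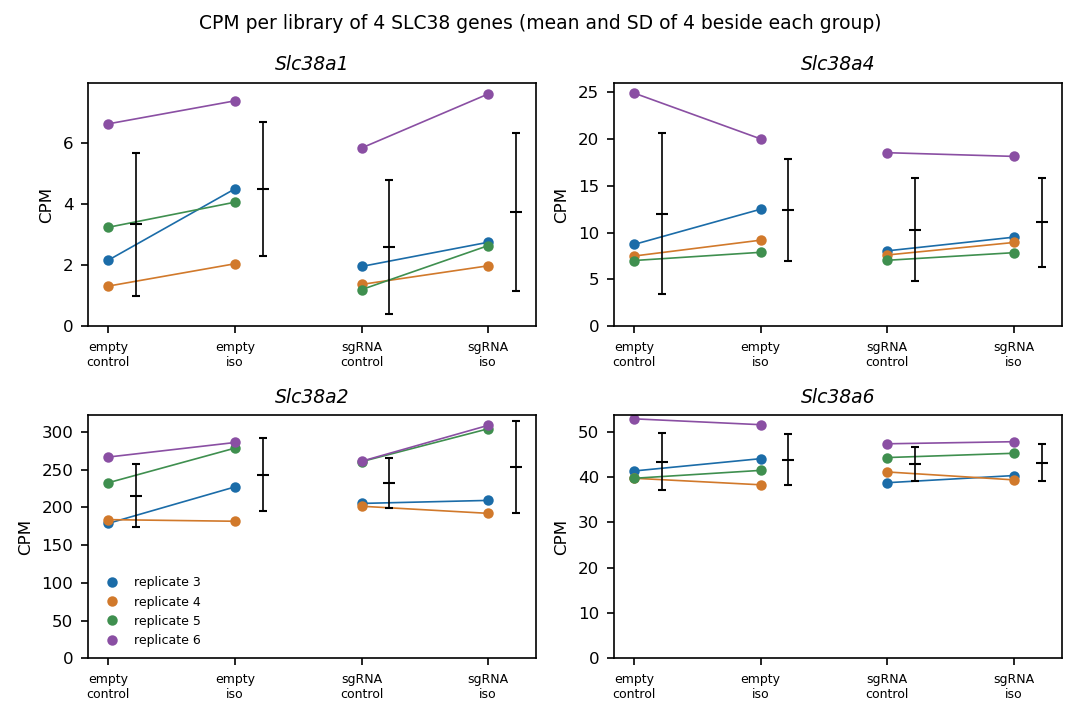
CPM per library of *Slc38a1*, *Slc38a4*, *Slc38a2* and *Slc38a6* in the 4 groups, with points coloured by replicate number, lines joining libraries of the same number and plasmid, and the mean and SD of 4 beside each group. Replicate 6 lies above the other 3 in every group for *Slc38a1* and *Slc38a4*, whose replicate 6 mean is 20.4 CPM.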

How the data were processed

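Polyadenylated RNA of 16 libraries was sequenced in paired ends. Reads were quality-filtered (cutadapt) and assigned to GENCODE transcripts of GRCm38 (salmon) by the authors, who deposited estimated counts per gene as whole numbers, not normalized. Tool versions and the use of strand are not given in the sources used here, so values of overlapping genes and paralogs are uncertain. Groups came from the sample titles, and all 16 columns matched a title.

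Tests used R 4.3.3 and edgeR 4.0.16 with the deposited counts as input. The filter was filterByExpr (minimum count 10, minimum total 15), scaling was by TMM, and the 4 group means were fitted over all libraries by glmQLFit and tested two-sided by glmQLFTest, with adjustment over 13150 genes. CPM used TMM-scaled library sizes. CPM per kb used the union of exons in a GENCODE annotation of GRCm38, in which all 61 members were found. Promoter windows came from RefSeq (GRCm38.p6).

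Log2 CPM deviations from the group means correlated between libraries of the same replicate number in each of 24 pairs (0.224 to 0.613, median 0.410), against −0.512 to 0.516 (median −0.215) in 72 pairs of different numbers. Deviations cancel within each group, so positive correlations for the same number pull the others down, and the negative median adds no support. The numbers were taken as pairing the libraries on the positive correlation in each of the 24 pairs of the same number. The median biological coefficient of variation was 18.0% without and 9.96% with the block.

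Members were chosen by symbol. Named members were those called in any contrast, the highest per family and a written list, to which *Slc16a10* and *Slc7a6* were added after results were seen. The members and lists were chosen with earlier results of these data known. The model was also run on simulated data, and the outcome of that run is not given here. Alternatives were RLE scaling, no filter, DESeq2 1.42.0, the block, leaving out the ribosomal RNA gene, its share as a covariate, adjusted p alone and leaving out each library and replicate number. The 95% intervals of fold changes came from the model, and upper limits for genes at 0, set at 3 counts, cover counting error only. Some single genes that are part of the family and list counts are not reported here by name.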

Additional observations from a re-analysis of the deposited data

Results flagged for a closer look

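In 4 of 60 groups of 4 libraries of the named members, 1 library lay far from the other 3 by Dixon's criterion, which chance meets in about 1 in 20 groups. *Slc1a5* measured 248 CPM in stimulated empty vector cells of replicate 5, against 112 to 122 CPM in the other 3. *Slc2a4* measured 88.0 CPM in the same library, against 46.4 to 49.96 CPM. This library had the highest share of the ribosomal RNA gene, 51.8%, whose part in both values was not tested. *Slc38a1* measured 5.85 CPM in unstimulated sgRNA cells of replicate 6, against 1.20 to 1.96 CPM, and 7.63 CPM in stimulated sgRNA cells of replicate 6, against 1.98 to 2.75 CPM.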

How the results depend on the processing

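The number of carriers called for isoproterenol was 1, and it was 3 with adjusted p alone, 3 without a filter (*Slc1a3*, *Slc1a5* and *Slc7a5*), 2 with DESeq2 (*Slc1a3* and *Slc1a5*), 3 with the replicate block (*Slc1a3*, *Slc1a5* and *Slc38a1*), 3 with the block and the ribosomal RNA share (*Slc7a5* in place of *Slc38a1*), and 9 with the block and adjusted p alone. Leaving out libraries or replicate numbers gave 1 to 3 without the block (3 without replicate 5 of the stimulated empty vector), 2 to 5 with it, 1 to 6 by adjusted p alone and 5 to 12 by adjusted p with the block. For the sgRNA and the interaction the number of calls was 0 in all alternatives run. With the block and the ribosomal RNA share the sgRNA median was 0.03, a fit in which share and plasmid cannot be fully told apart.

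Some estimates changed sign, most of them small, and the cause was not tested. For isoproterenol, with the block and the ribosomal RNA share, *Slc38a9* was at −0.00081 averaged and −0.012 in sgRNA cells (−0.012 without a filter), and *Slc7a1* at −0.027 in empty vector cells. For the sgRNA, the block and the share gave *Slc16a10* 0.11, *Slc2a1* −0.072, *Slc38a1* 0.023 (−0.30 without either), *Slc38a9* 0.14, *Slc3a2* 0.18, *Slc7a1* 0.034, *Slc7a11* 0.080 and *Slc7a5* 0.20, and the block alone gave *Slc16a3* 0.040 and *Slc3a2* 0.010. *Slc1a3* was at 0.00085 with RLE, 0.00087 with DESeq2, 0.00081 without the ribosomal RNA gene and 0.022 without a filter. *Slc3a2* was at 0.0042, 0.0045, 0.0038 and 0.028 in the same order, and *Slc16a1* at 0.0031 without a filter.

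When libraries were left out, the isoproterenol effect of *Slc7a1* ran from −0.096 to 0.12 (−0.099 to 0.13 with the block), from −0.085 to 0.22 in empty vector cells and from −0.19 to 0.032 in sgRNA cells. In empty vector cells *Slc16a3* ran from −0.029 to 0.62, *Slc38a9* from −0.029 to 0.26 and *Slc3a2* from −0.24 to 0.031. In sgRNA cells *Slc38a1* ran from −0.081 to 1.30 and *Slc38a9* from −0.066 to 0.14. The sgRNA effect ran from −0.068 to 0.033 for *Slc16a1*, −0.13 to 0.043 for *Slc16a10*, −0.18 to 0.24 for *Slc16a3*, −0.066 to 0.068 for *Slc1a3*, −0.19 to 0.079 for *Slc1a5*, −0.083 to 0.18 for *Slc2a1*, −0.063 to 0.16 for *Slc2a4*, −0.056 to 0.13 for *Slc3a2*, −0.11 to 0.018 for *Slc7a11* and −0.16 to 0.066 for *Slc7a5*.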
